A study of Mus musculus with 24 samples.

Results

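The cytosolic ribosomal protein genes of the mouse were followed through RNA sequencing of lacrimal glands (LGs) and of lacrimal gland stem cells (LGSCs). The members were the genes that GENCODE M21 classes as protein coding and whose symbol is Rps or Rpl with a number and an optional letter or l suffix, together with Rpsa, Rplp0, Rplp1 and Rplp2. Pseudogenes and the Rps6k kinases were not included. There were 81 members among the 52636 Ensembl genes that the tables of the 20 main libraries list. Of these, 31 encode proteins of the small ribosomal subunit and 50 encode proteins of the large subunit. Membership rested on names, and no measured value entered this rule. The family itself was chosen with earlier results of these data known.

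Ribosomal proteins bind the ribosomal RNAs and build, together with them, the small subunit that reads the messenger RNA and the large subunit that joins the amino acids. Most of their messenger RNAs begin with a C followed by a run of pyrimidines, the 5′ terminal oligopyrimidine (TOP) motif, through which the mTOR pathway and the protein Larp1 control their translation. Cells that grow or secrete make many ribosomes, and the messenger RNAs of this family are among the most abundant of most tissues. The LG makes the watery part of the tear film, and its acinar cells make large amounts of secreted protein.

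The study grew LGSCs as spheres from single cells of LGs of C57BL/6 mice that were 6 to 8 weeks old, in Matrigel with a serum-free medium, LGSCM, which held EGF, FGF10, Wnt3A and the kinase inhibitor Y-27632. Spheres of passage 2 were sequenced at day 5 (2 libraries), day 7, day 10 and day 14 (3 libraries each), with whole adult LG and whole embryonic LG of the stages E17.5 and E19.5 (embryonic days), 3 libraries each. One library of passage 10 spheres at day 7 was compared by its values only, since it has no replicate. Its table lists as many Ensembl genes as the others (52636), but 111 further loci without an Ensembl identifier against 11226 in the others. The study lists 24 samples, and those not used here are 1 replicate of day 5 and the spheres of passages 6 and 20. Sources of the replicates (separate animals, litters or cultures) are not given in the labels, so the p-values measure the spread between these libraries, which may be technical. The whole glands hold epithelium, mesenchyme, vessels and leukocytes, whereas the spheres came from cells that survive and divide in this medium.

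The values are FPKM, fragments scaled to the length of the gene and to a scale for each library, and every test ran on log2(FPKM + 1), a scale that understates changes of genes with low FPKM. The low values fall on whole multiples of 1 read, from which 6434281 to 9257025 reads were recovered for the 20 libraries and 25172949 for the passage 10 library. Reads were concentrated in adult LG, where the top 10 genes held 60.4%, 59.6% and 31.3% of them in replicates 1, 2 and 3, against at most 8.07% in any other of the 20 libraries. Adult LG replicate 3 stood apart from the other adult libraries, with 15948 FPKM of Car6, a secreted carbonic anhydrase of acinar cells, against 5463 and 5639 FPKM. Car6 reached at most 0.890 FPKM outside the adult glands. In the passage 2 spheres the epithelial genes Cdh1 and Krt18 ranged from 388 to 916 and from 130.1 to 1734 FPKM, whereas Krt14, which marks basal epithelial cells, lay between 3.35 and 17.8 FPKM against 7065 FPKM at passage 10, and Krt8 and Epcam were listed at 0 in all 20 libraries. The study itself reported staining for Krt14 and Epcam in all cells of its spheres at day 7, and Krt14 transcripts by RT-PCR at each passage tested. The low or 0 values of these genes here are therefore not read as their absence from the spheres, and their cause was not tested. In bulk RNA fewer cells of a type and less RNA per cell cannot be told apart.

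The starts of the genes are shown first, because a pyrimidine run at the first transcribed base is the TOP motif known from this family. RefSeq (GRCm38.p6) gave start windows for 61 of the 81 members. Each line holds the 10 bases before the annotated start and the 15 bases from it, on the strand of the gene, and the capitals mark the unbroken run of pyrimidines that begins at the annotated start.
Rps6 (chr4:86857353-86857377, minus strand): gaagtcgggcCTCTTTTTCgtgacg
Rps10 (chr17:27635230-27635254, minus strand): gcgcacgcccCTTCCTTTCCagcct
Rps27 (chr3:90213634-90213658, minus strand): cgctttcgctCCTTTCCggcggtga
Rpl14 (chr9:120571507-120571531, plus strand): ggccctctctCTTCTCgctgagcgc
Rpl28 (chr7:4792955-4792979, plus strand): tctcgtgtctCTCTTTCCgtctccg
Rplp2 (chr7:141447641-141447665, plus strand): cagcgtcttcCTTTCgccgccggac
Rps2 (chr17:24720053-24720077, plus strand): gtcgagatctCgcgcttcttggagc
Rpl41 (chr10:128549154-128549178, minus strand): gggccggctcggaagtgacgacacc
Rpl36al (chr12:69184053-69184077, minus strand): ccgtcgctcaggttcagttccgact
The first 6 begin with C and at least 4 further pyrimidines, and the last 3, which recur in the results, do not at the annotated base. Such a run of at least 5 pyrimidines opening with C stood exactly at the annotated start of 13 of the 61 matched members (21.3%), against 3.01% of the 27025 genes with a start window. It began within 5 bases of the annotated start in 28 members (45.9%), against 21.2% of all genes.

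Fixed strings were searched on both strands over 250 bases before and 50 bases after the start. The string CCGGAAG, bound by ETS factors, was present in 25 members (41.0%) against 9.93% of all genes, and the GC box GGGCGG was present in 37 (60.7%) against 38.2%. AAGATGG, bound by YY1, was found in 9 members (14.8%) against 7.28%, and it can overlap CCGGAAG by its first 3 bases. CACGTG, the E-box that Myc binds, was found in 6 members (9.84%) against 8.09%, and TATAAA in 6 (9.84%) against 15.7%. Such matches describe the letters of these windows and show no binding.

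The members spanned the whole range of expression. Averaged over the 20 passage 2 and tissue libraries, the highest was Rps2, a small subunit protein near the entry of the messenger RNA channel, with 3054 FPKM, followed by Rpl32 with 2608 FPKM and Rps29 with 2397 FPKM. A group of 32 members (13 small and 19 large subunit) averaged over 100 FPKM, from 249 for Rpl14 up to Rps2, and these 32 took 98.9% to 99.4% of the summed FPKM of the family in each library. The other 49 members lay far lower. Rpl8, Rpl17, Rpl36 and Rpl10l were listed at 0 in all 20 libraries, and 6 others, among them Rpl23a, Rpl26 and Rpl29, averaged under 0.5 FPKM over the 9 tissue libraries, so these 10 members entered no tissue comparison.

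The passage 10 library showed how uneven this was. In it Rpl8, Rpl36 and Rpl17, all parts of the large subunit core, had 1317, 935 and 540 FPKM. The mean at day 7 of passage 2 was under 0.1 of the passage 10 value for 41 members (18 small and 23 large subunit). Their median over the 20 libraries was 2.88 FPKM, against a median of 372 FPKM at passage 10. Such a gap was not particular to the family, since 2695 of the 5332 Ensembl genes with at least 10 FPKM at passage 10 (50.5%) lay under 0.1 of it at day 7 of passage 2, against 41 of 76 such members (53.9%). The cause was not tested. Ribosomal protein genes have many near-identical processed copies in the genome, and how the authors' counting placed reads that match several copies is not given in the sources used here, so the levels of single members are uncertain, most of all for the 41. The plot of passage 2 against passage 10 shows both groups.

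**Figure D1:**
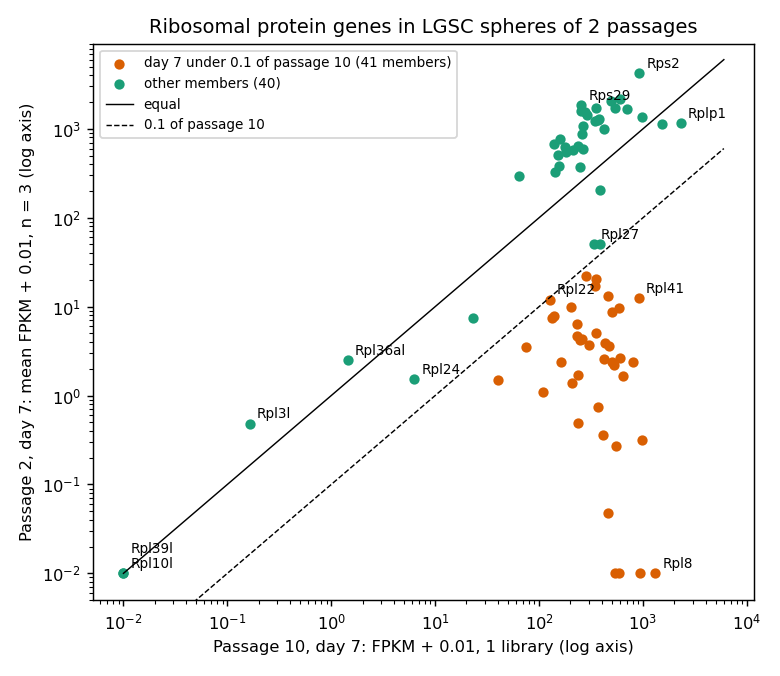
Mean FPKM of each member over the 3 day 7 libraries of passage 2 (vertical axis) against its FPKM in the passage 10 library (horizontal axis), both on log axes with 0.01 added, with 1 point for each of the 81 members. The solid line marks equal values, and the 41 members in orange lie below the dashed line at 0.1 of passage 10.

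As a family, the ribosomal protein genes were highest in E19.5 LG. The summed FPKM of the 81 members was 49134, 57509 and 73827 in the 3 E19.5 libraries, 39527, 41003 and 45059 at E17.5, and 42854, 38601 and 23825 in adult LG replicates 1 to 3. All E19.5 sums lay above all E17.5 and adult sums, by ratios of the means of 1.44 and 1.71, whereas the E17.5 and adult sums overlapped. In the spheres the sums of day 5 were 43852 and 54616, those of day 7 were 35262, 40985 and 35189, those of day 10 were 30951, 46212 and 35398, and those of day 14 were 35309, 29461 and 33998. Both day 5 sums lay above all day 14 sums, with means of 49234 and 32923. Sums at days 7, 10 and 14 overlapped, and the mean at day 14 was 0.886 times that at day 7. A score over the members gets no p-value here, because the members were chosen with earlier results known.

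As a share of all FPKM in a library, the family took 1.54%, 1.54% and 3.61% in adult LG, against 11.3% to 12.6% at E17.5, 13.04% to 15.9% at E19.5 and 9.50% to 12.3% in the spheres. With the 16 genes that were among the 10 most abundant of any adult library left out of the total, the adult shares rose to 9.19%, 8.70% and 7.76%, and they stayed below all other libraries (lowest 9.50%). The lowest of those other libraries was a day 14 library. The plot of the sums shows both scales.

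**Figure D2:**
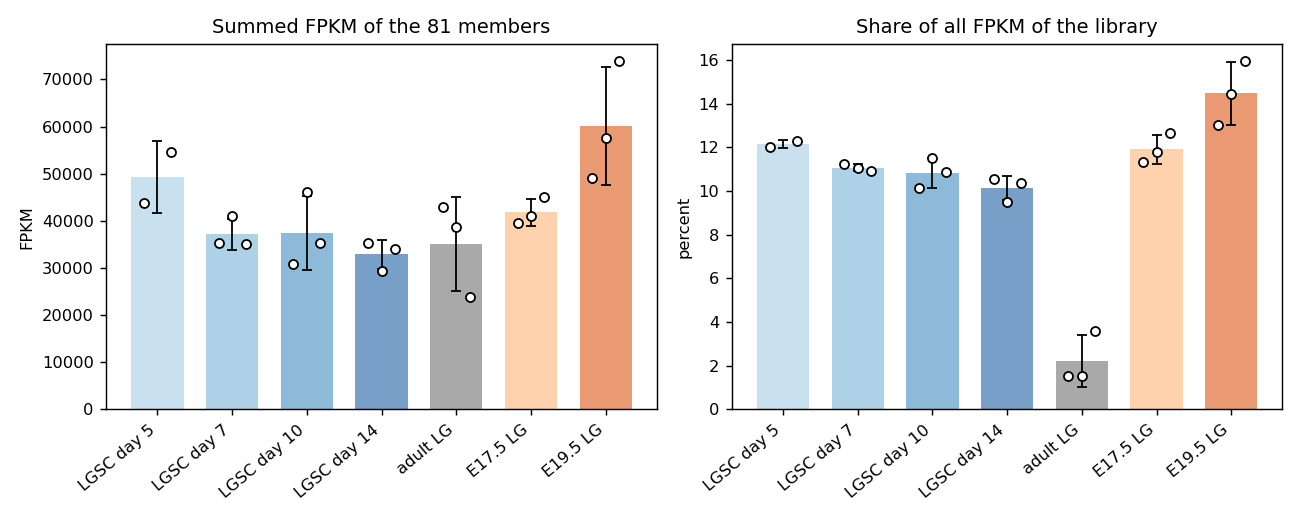
Summed FPKM of the 81 members in each library (left) and their share of all FPKM in percent (right) by group, with 1 point per library, bars for the mean and error bars for the SD of the replicates. E19.5 LG has the highest sums (49134 to 73827), and adult LG has shares of 1.54% to 3.61% against at least 9.50% elsewhere.

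The abundant members moved together from library to library. Over the 20 libraries the correlation of log2(FPKM + 1) of each of the 32 abundant members with the median of the other 31 had a median of 0.912, and 18 members exceeded 0.9, Rps24 most (0.969). These values are a description, since all members of a library share its scale and depth. The lowest were Rps27l (-0.018), Rplp2 (0.227), Rps2 (0.344), Rps9 (0.680) and Rpl10 (0.681). The SD of an abundant member over the libraries ranged from 0.273 for Rps9 to 0.661 for Rps27l on the log2 scale, with a median of 0.419. Against the median of the other 31, centred over the libraries, Rps27l deviated by 1.15 in adult LG, and Rps2 deviated by 0.74 in the spheres at day 7, by -0.69 in adult LG and by -0.79 in E19.5 LG.

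**Figure D3:**
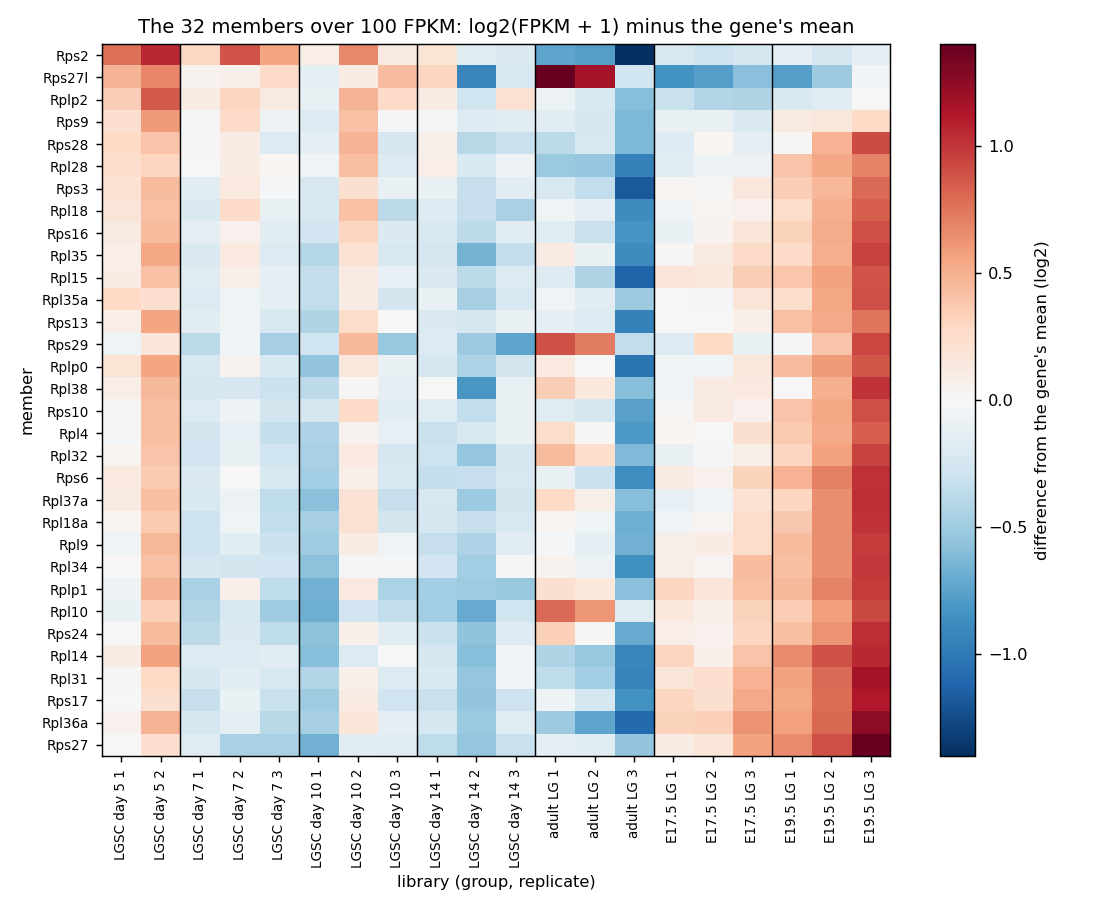
Log2(FPKM + 1) of the 32 abundant members (rows) in each of the 20 libraries (columns, by group and replicate) minus the member's own mean over these libraries, with red above and blue below the mean and colors saturated at the ends of the scale. Most rows are red in E19.5 LG and blue in adult LG replicate 3, whereas Rps27l is red in adult LG replicates 1 and 2 and Rps2 is red at day 5 and blue in adult LG.

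E17.5 LG was first compared with adult LG, to ask which members differ between a gland that is still branching and a secreting gland. Of the 71 members tested, 23 were higher at E17.5 and 4 were lower by limma at an adjusted p under 0.05, against 29.1% and 24.9% of the 18578 genes tested. The median change of the members was 0.37 on the log2 scale, against 0.05 for all genes tested. Groups did not overlap for 33 members that were higher and 5 that were lower, against 32.3% and 27.2% of all genes. At E19.5 there were 42 higher and 6 lower members (background 30.3% and 23.9%), and the median was 0.78 against 0.09. The E19.5 and adult groups did not overlap for 45 higher and 7 lower members (33.0% and 25.8% of all genes). Both comparisons share the adult libraries. The share of higher members was thus close to the background at E17.5 and above it at E19.5.

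These counts depend on the scale, and the scales differ most for adult LG. Scaled to equal FPKM sums, the median of all genes itself moved to 1.24 at E17.5 and 1.09 at E19.5, and 66 and 62 members were higher and none lower (all genes 65.7% and 60.5% higher, 6.14% and 5.57% lower). Scaled to recovered reads it moved to 0.63 and 0.58. E17.5 LG then had 55 higher and 2 lower members (45.9% and 11.6% of all genes), and E19.5 LG had 54 and 1 (43.7% and 11.3%). The members' own median as the scale put all genes at -0.20 and -0.48. On it 15 members were higher and 10 lower for E17.5 (20.5% and 31.1% of all genes), and 13 and 21 for E19.5 (13.9% and 40.9%). The median of the members was 2.36 and 2.51 on equal FPKM sums and 1.33 and 1.597 on recovered reads, above that of all genes each time.

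The counts also moved with adult LG replicate 3. Without it 23 members were higher and 6 lower for E17.5 (34.0% and 29.4% of all genes), and 43 and 4 for E19.5 (35.2% and 28.3%). With it as the sole adult library 37 were higher and 6 lower for E17.5 (30.3% and 23.6%), and 43 and 6 for E19.5 (31.3% and 22.5%). Markers of other cell types moved with these comparisons too. The summed FPKM of the 8 mesenchyme markers was 171 to 345 in adult LG and 4886 to 5860 in the embryonic libraries, with none of the 8 at 0 in these groups, and that of the 8 leukocyte markers was 724 to 1452 against 116 to 174. Their part in the result was not tested.

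The same background applies to subsets of the family (29.1% higher and 24.9% lower for E17.5, 30.3% and 23.9% for E19.5). Among the 32 abundant members E17.5 LG had 7 higher and 1 lower (median 0.40), and E19.5 LG had 26 higher and 1 lower (median 0.90). Among the 41 members with low values against passage 10, of which 32 were tested, E17.5 LG had 13 higher and 2 lower (median 0.28), and E19.5 LG 12 higher and 4 lower (median 0.15). Small and large subunit genes had medians of 0.37 and 0.37 at E17.5 and of 0.64 and 0.80 at E19.5. The plot of changes gives all members tested in the 7 comparisons.

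**Figure D4:**
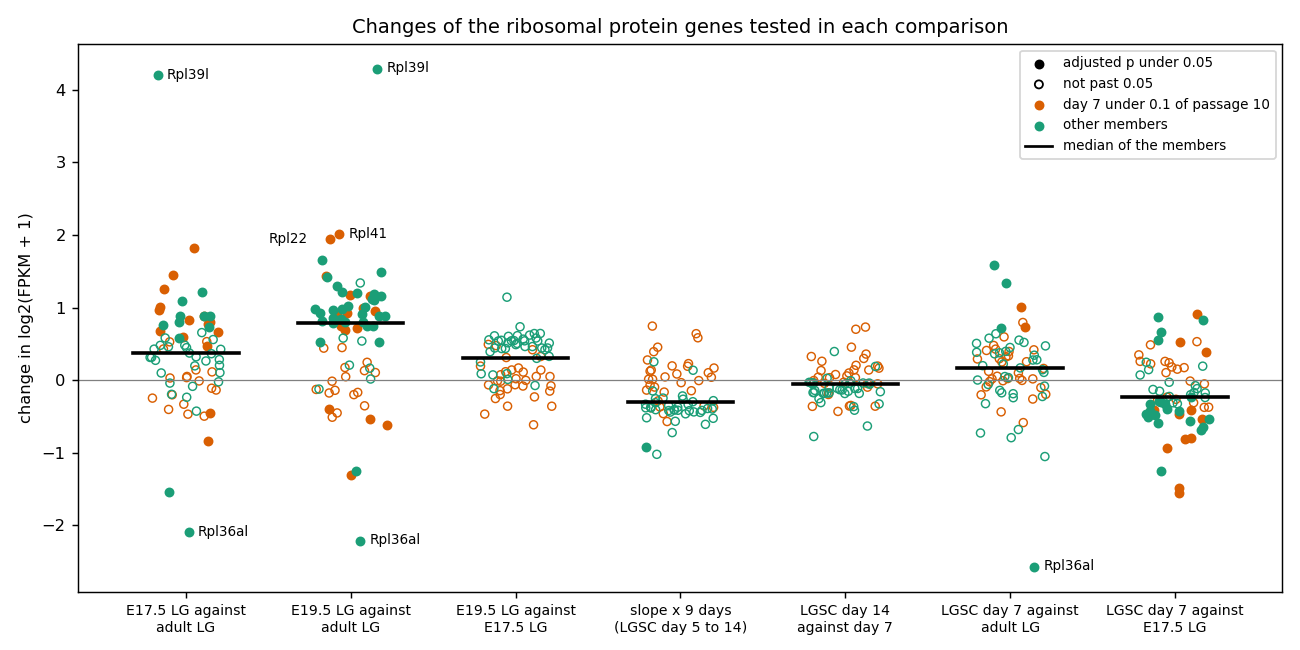
Change in log2(FPKM + 1) of each member tested (points) in the 7 comparisons, filled where the limma adjusted p was under 0.05 and coloured by the level against passage 10, with a bar for the median of the members. The culture slope is drawn as the change over 9 days, and Rpl39l, which is listed at 0 in the spheres, is not drawn in the last 2 columns. The median bar is at 0.78 for E19.5 against adult LG and at -0.24 for LGSC day 7 against E17.5 LG.

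The single clearest difference was in Rpl39l, the paralog of Rpl39 that is best known from testis. Rpl39 (chromosome X, 37082520 to 37085402) and Rpl39l (chromosome 16, 10170226 to 10174911, both GRCm38) encode a small large-subunit protein that lines the exit tunnel. Rpl39l had 0.998, 2.28 and 3.63 FPKM in adult LG, 59.7, 52.9 and 56.2 FPKM at E17.5 and 54.5, 58.2 and 67.6 FPKM at E19.5. All embryonic libraries lay far above all adult ones. The change was 4.20 ± 0.27 (SE) at E17.5 and 4.29 ± 0.27 at E19.5 (limma, adjusted p = 6.7e-06 and 7.1e-06). In every sphere library, passage 10 included, Rpl39l was listed at 0. Rpl39 had no such pattern, with means of 2.23 ± 0.57 FPKM in adult LG, 2.36 ± 0.65 in E17.5 LG and 2.31 ± 0.17 in E19.5 LG (SD, n = 3 each) and changes of 0.05 and 0.05 (adjusted p = 0.84 and 0.85). At such low FPKM log2(FPKM + 1) understates changes, and the level of Rpl39 itself is uncertain. The coding sequences are shown because reads could be shared between them, with capitals where the aligned bases differ.
Rpl39: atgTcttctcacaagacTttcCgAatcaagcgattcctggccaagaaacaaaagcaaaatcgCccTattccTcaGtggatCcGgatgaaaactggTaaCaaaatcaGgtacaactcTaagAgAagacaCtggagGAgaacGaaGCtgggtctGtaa
Rpl39l: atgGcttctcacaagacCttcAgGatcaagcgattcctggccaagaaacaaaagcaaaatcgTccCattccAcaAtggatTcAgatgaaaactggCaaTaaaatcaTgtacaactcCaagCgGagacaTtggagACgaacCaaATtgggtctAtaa
They differ at 23 of 156 bases (85.3% identical), and the longest identical run is 38 bases, shorter than a read of this study.

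Other paralogs went the opposite way. Rpl36al (chromosome 12, 69182731 to 69184083) had 29.7, 30.3 and 8.14 FPKM in adult LG, 4.47, 3.14 and 3.97 FPKM at E17.5 and 2.79, 3.29 and 4.43 FPKM at E19.5, so that the groups did not overlap. It was lower in both, with changes of -2.10 ± 0.44 and -2.21 ± 0.44 (adjusted p = 0.0037 and 0.0029). Its parent Rpl36a (chromosome X, 87.9% identical in coding sequence) went up instead, from 458, 391 and 305 FPKM in adult LG to 815, 822 and 1007 in E17.5 LG and 965, 1136 and 1546 at E19.5, by 1.21 ± 0.23 and 1.65 ± 0.23 (adjusted p = 0.0021 and 0.00041).

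Rps27l, a paralog of Rps27 that p53 induces, had 1659, 1281 and 470 FPKM in adult LG, 318, 332 and 378 at E17.5 and 335, 401 and 556 at E19.5. It was the 1 abundant member called lower, with changes of -1.55 ± 0.43 and -1.25 ± 0.43 (adjusted p = 0.015 and 0.036), and its E19.5 libraries overlapped adult LG replicate 3. Against that adult library alone the changes were -0.46 and -0.16 (adjusted p = 0.22 and 0.66), and without adult LG replicate 2 the adjusted p was 0.052 and 0.11. In E19.5 LG the call was also lost without adult LG replicate 1, any 1 of the E17.5 libraries, or E19.5 replicate 1 or 2 (adjusted p from 0.054 to 0.11). On equal FPKM sums both changes were positive, 0.69 and 0.77. Rps27 (76.1% identical in coding sequence) had means of 1695 ± 261, 2502 ± 452 and 4245 ± 1292 FPKM (SD, n = 3) in adult, E17.5 and E19.5 LG, and it was called at E19.5 (1.29, adjusted p = 0.0025) and not at E17.5 (0.56, adjusted p = 0.088).

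Rpl3l, the paralog of Rpl3 used by striated muscle, had 5.05, 2.69 and 0.160 FPKM in adult LG, 2.03, 2.90 and 2.28 at E17.5 and 8.14, 5.42 and 6.13 at E19.5, and it was not called (0.20 and 1.34, adjusted p = 0.77 and 0.054). The 8 skeletal muscle markers summed to 0.692 to 2.73 FPKM in adult LG, 4.50 to 15.2 at E17.5 and 3.36 to 6.27 at E19.5, with Acta1 at 0 throughout, and their part in the value was not tested. Rpl3 itself was higher in both embryonic groups, by 1.26 ± 0.22 and 0.90 ± 0.22 (adjusted p = 0.0014 and 0.0081), at 14.3 to 18.5 FPKM against 7.42 FPKM in group means.

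Of the large subunit genes, Rpl22 and Rpl41 had the next largest rises. Rpl22 (chromosome 4, 152325742 to 152334071), a protein on the surface of the subunit, had 15.2, 14.5 and 8.51 FPKM in adult LG, 34.7, 35.1 and 36.8 at E17.5 and 46.0, 52.0 and 53.4 at E19.5. All 3 groups were separate, and the changes from adult were 1.45 ± 0.21 and 1.94 ± 0.21 (adjusted p = 0.00047 and 0.00011). Rpl41 (chromosome 10), the smallest ribosomal protein, had 5.68, 9.18 and 15.7 FPKM in adult LG against 31.6 to 49.2 FPKM in the 6 embryonic libraries, with changes of 1.81 ± 0.31 and 2.01 ± 0.31 (adjusted p = 0.0014 and 0.00084). Both belong to the 41 members with low values against passage 10. Rpl14 rose by 1.49 ± 0.18 at E19.5 (adjusted p = 0.00023), from 174, 161 and 124 FPKM in adult LG to 370, 433 and 486 FPKM.

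**Figure D5:**
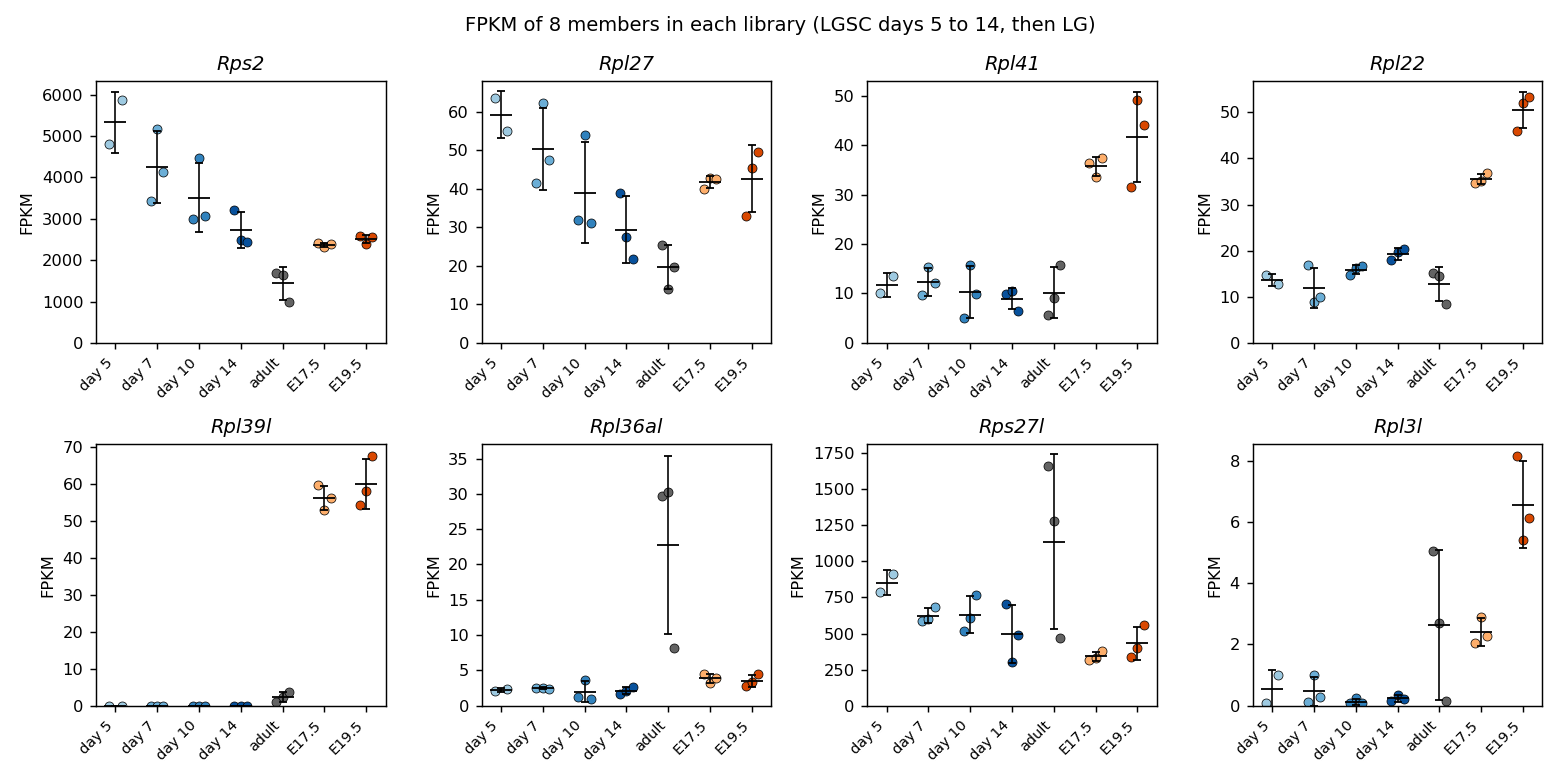
FPKM of 8 members in each library (points) by group on linear axes from 0, with a horizontal mark for the mean and error bars for the SD (n = 3, and 2 at day 5). Rpl39l is at 52.9 to 67.6 FPKM in the embryonic libraries and at 0 in the spheres, whereas Rpl36al and Rps27l are highest in adult LG replicates 1 and 2.

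The stalk of the large subunit, which recruits the elongation factors, is made of Rplp0, Rplp1 and Rplp2. Rplp0 had 1373, 1241 and 611 FPKM in adult LG, 1204, 1210 and 1394 at E17.5 and 1676, 1891 and 2279 at E19.5. It was called at E19.5 (0.93 ± 0.30, adjusted p = 0.027), as was Rplp1 (0.78 ± 0.24, adjusted p = 0.024). Without E19.5 LG replicate 2 or 3 neither call held (adjusted p from 0.064 to 0.089). Neither was called at E17.5, where the changes were 0.32 and 0.36 (adjusted p = 0.39 and 0.24). Rplp2 was not called at either stage (-0.09 and 0.16, adjusted p = 0.69 and 0.43).

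Of the small subunit genes, Rps2 had 1692, 1644 and 987 FPKM in adult LG, 2412, 2306 and 2381 at E17.5 and 2584, 2395 and 2567 at E19.5. Its embryonic libraries varied little and all exceeded the adult ones, by 0.76 ± 0.21 and 0.84 ± 0.21 (adjusted p = 0.016 and 0.010). Without E17.5 LG replicate 1 or 3 the adjusted p at E17.5 was 0.053 and 0.050, just over the threshold. Scaled to the members' own median, Rps2 changed by -0.06 at E19.5, with an adjusted p of 0.72. Rpsa, also known as the laminin receptor precursor, had 1.05, 0.796 and 1.57 FPKM in adult LG and 2.996 to 4.02 FPKM in the embryonic libraries, with changes of 1.01 ± 0.16 and 1.17 ± 0.16 (adjusted p = 0.00086 and 0.00040), at a mean of 58.9 reads over the 20 libraries. Rpsa belongs to the 41 members with low values against passage 10.

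The X-linked Rps4x, one of the 41 members with low values against passage 10, fell at both stages, with changes of -0.45 and -0.54 (adjusted p = 0.020 and 0.0095), and Rpl7 fell at E19.5 (-0.61, adjusted p = 0.037), from means of 3.09 and 3.83 FPKM in adult LG. On the scale of recovered reads both were slightly positive at E19.5, at 0.064 and 0.0043. The Rpl7 call was also lost without adult LG replicate 1 or 3, E17.5 replicate 1 or 2, or E19.5 replicate 2 or 3 (adjusted p from 0.051 to 0.12).

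Between E17.5 and E19.5 no member of 71 was called by limma in the fit of all 9 tissue libraries, against 1.74% of all genes. The median change was 0.31 and 52 members were positive. The 32 abundant members were all positive, from 0.09 for Rps2 to 0.73 for Rps27, with a median of 0.51. All members of a library share its scale, so these signs are not separate results. The E19.5 libraries lay above all E17.5 libraries for 32 members and below for 4 (19.8% and 15.3% of all genes). On equal FPKM sums the median of all members was 0.10. In a fit of the 6 embryonic libraries alone, which was added after the data were seen, 8 members were called, each higher in E19.5 LG, against 12.4% of all genes in either direction and 7.71% higher. They were Rpl10a (0.55), Rpl14 (0.61), Rpl22 (0.49), Rpl23 (0.42), Rpl28 (0.64), Rpl3l (1.14), Rplp0 (0.61) and Rps13 (0.54), with adjusted p from 0.011 to 0.039. Without adult LG replicate 3 in the fit of tissues, 10 members were called, all higher (5.78% of all genes).

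The spheres were then compared over culture time. A slope over days 5 to 14 called 1 of 69 members, Rps2, which was lower later, against 2.14% of 15584 genes in either direction. On day 5 Rps2 had 4819 and 5861 FPKM, on day 7 it had 3438, 5163 and 4132, on day 10 it had 2997, 4475 and 3070, and on day 14 it had 3219, 2494 and 2450. All day 14 libraries lay below all of day 7, and the fitted slope was -0.10 ± 0.02 per day on the log2 scale (adjusted p = 0.039). The call was lost without either library of day 5, replicate 2 or 3 of day 7, replicate 1 or 3 of day 10, or replicate 2 or 3 of day 14 (adjusted p from 0.051 to 0.14), and over days 7 to 14 alone (-0.09 per day, adjusted p = 0.29). The same replicate numbers paired in the cultures, and with the number as a block Rps2 was called again (-0.10, adjusted p = 0.022) together with Rpl27 (-0.11, adjusted p = 0.043), against 5.02% of all genes.

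Rpl27, a large subunit protein, had 63.6 and 54.9 FPKM on day 5, then 41.5, 62.2 and 47.5 on day 7, then 31.9, 54.1 and 31.0 on day 10 and, last, 39.0, 27.5 and 21.8 on day 14. In the fit without the block its slope was -0.11 ± 0.03 per day (adjusted p = 0.060). The median slope of the members was -0.03 per day, and that of the 32 abundant members -0.05, all of them negative (from -0.10 to -0.03). Here too the members share the scale of each library, so the signs are not separate results. Scaled to equal FPKM sums the median of all members was -0.01 per day. The summed FPKM of 10 cell division markers was 437 to 493 at day 5 and 142 to 189 at day 14, none of them at 0, and their part was not tested.

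Between day 7 and day 14 limma called 0 of 70 members and 0 of 15744 genes, of which 1557 had an unadjusted p under 0.05. Members that did not overlap were 4 higher and 9 lower at day 14 (8.26% and 9.12% of all genes). Limma-voom on the recovered reads also called 0 members and 0 genes. The changes ran from -0.78 for Rpl27 and -0.63 for Rps2 to 0.70 for Rpl22 among the members described here (adjusted p = 0.46, 0.44 and 0.47), and the median was -0.05.

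Spheres at day 7 were set beside adult LG, the tissue from which they were grown. Of 72 members tested, 5 were higher in the spheres and 2 lower, against 14.2% and 21.1% of 17698 genes, so that both shares were below the background. Groups did not overlap for 22 higher and 4 lower members (22.9% and 29.5% of all genes). Rps2 rose most, by 1.58 ± 0.28 (adjusted p = 0.0070), from a mean of 1441 ± 394 FPKM in adult LG to 4244 ± 868 (SD, n = 3). Rpl27 rose by 1.33 ± 0.29 (adjusted p = 0.013), Rps19, which is mutated in Diamond-Blackfan anaemia, by 1.01 ± 0.24 (adjusted p = 0.021), and Rps20 and Rpl28 by 0.73 and 0.72 (adjusted p = 0.044 and 0.028). Rps19 and Rps20 belong to the 41 members with low values against passage 10, whose levels are the most uncertain. Without LGSC day 7 replicate 3 fewer members were called, and Rpl27 had an adjusted p of 0.052. The share of all genes called in that fit is not given here, so the fall is not read as a result about the family. The Rps20 call was lost without any 1 library other than adult LG replicate 3 (adjusted p from 0.096 to 0.14), and the Rps19 call without day 7 replicate 2 or 3 or adult LG replicate 2 (0.053 to 0.071).

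The 2 lower members were Rpl36al and Rpl39l. Rpl36al had 2.55, 2.55 and 2.31 FPKM at day 7 against 8.14 to 30.3 FPKM in adult LG, a change of -2.57 ± 0.49 (adjusted p = 0.0089). Rpl39l is listed at 0 in the spheres and passed the filter of this fit only through adult LG. Its direction was thus fixed in advance, and its call is not read as a result. The stalk genes were not called, with 0.17 for Rplp0, -0.18 for Rplp1 and 0.47 for Rplp2 (adjusted p = 0.72, 0.66 and 0.12). The counts moved with the adult libraries and the scale. Without adult LG replicate 3 there were 12 higher and 11 lower members (18.8% and 28.2% of all genes), and with it alone 10 and 2 (8.63% and 15.6%). On the scale of recovered reads 49 were called, against 41.8% of all genes, and 47 of them were higher, against 30.8%. On equal FPKM sums 64 were higher and 0 lower (53.2% and 6.89%). The median of all genes was 0.58 and 1.25 on these scales.

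Against E17.5 LG, spheres at day 7 had 7 higher and 27 lower members of 71, against 18.1% and 29.6% of 17391 genes, with a median of -0.24 against -0.10 for all genes. Groups did not overlap for 12 higher and 34 lower members (24.2% and 35.4% of all genes). Fewer members were called without day 7 replicate 3 or without E17.5 LG replicate 1. The share of all genes called in those fits is not given here, so the fall is not read as a result about the family. Lower calls were 20 of 43 large subunit genes and 7 of 28 small subunit genes. These lower calls include Rpl39l, which is listed at 0 in the spheres and passed the filter only through E17.5 LG, so its call is not read as a result. The largest other changes among the lower were those of Rpl22 (-1.55 ± 0.23, adjusted p = 0.0022), Rpl41 (-1.48 ± 0.17, adjusted p = 0.00074), Rpl3l (-1.25 ± 0.24) and Rpl27a (-0.94 ± 0.22, adjusted p = 0.015). Rpl3l lay near the floor in the spheres, so its change rests on its E17.5 values and is not read as a result either. Without E17.5 LG replicate 3 the adjusted p of Rpl27a was 0.058. The 11 sphere libraries held 8.87 to 20.3 FPKM of Rpl22, all below the 34.7 FPKM of the lowest embryonic library.

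Higher in the spheres than at E17.5 were Rpl19 (0.91), Rps27l (0.86), Rps2 (0.82), Rpl10a (0.66), Rplp2 (0.56), Rpl30 (0.52) and Rpl5 (0.39), the last of which joins the 5S RNA, with adjusted p from 0.00069 to 0.046. Rps27l was between 590 and 684 FPKM at day 7 against 318 to 378 FPKM at E17.5. Rplp2 was between 832 and 954 FPKM against 582 to 624 FPKM, while its stalk partner Rplp1 went the other way (-0.54, adjusted p = 0.026), a call lost without any 1 library other than day 7 replicate 2 (adjusted p from 0.050 to 0.092). Rpl19 averaged only 15.1 reads per library. Scaled to the members' own median, 13 members were higher and 15 lower (21.9% and 24.7% of all genes). The mesenchyme markers, whose sum was 4907 to 5768 FPKM at E17.5, summed to 0.529 to 1.43 FPKM in the spheres at day 7 with 5 of 8 at 0, and their part was not tested.

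Other genes of the ribosome and its making were read from lists chosen with earlier results known. Their counts stand against the shares of all genes called, which were 29.1% higher and 24.9% lower for E17.5 and 30.3% and 23.9% for E19.5 against adult LG, 2.14% in the culture slope, and for spheres at day 7 14.2% higher and 21.1% lower against adult LG and 18.1% and 29.6% against E17.5 LG. Nothing particular to a list is read from its count. The list for the separate mitochondrial ribosome was taken by symbol alone (Mrps or Mrpl with a number and an optional letter). Of its 78 genes, 64 were tested against adult LG, and E17.5 LG had 9 higher and 7 lower (median -0.03), E19.5 LG 11 and 5 (median 0.16). Mrps36 (1.37 and 1.74, adjusted p = 0.00023 and 6.9e-05) and Mrps6 (1.64 and 1.37, adjusted p = 0.0074 and 0.017) were among the higher. A symbol alone does not show that the product of a gene is part of that ribosome. In the culture slope 2 of 62 were called, against 2.14% of all genes, Mrpl12 (-0.09 per day) and Mrps28 (-0.10 per day), both lower later (adjusted p = 0.042 and 0.028). Like Rps2, both lost the call without single libraries, among them day 5 replicate 1 and day 14 replicate 3 (adjusted p from 0.095 to 0.14).

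Of 5 ribosomal proteins with other names 4 were tested. Fau, whose product is cut to the small subunit protein Rps30, was higher at E19.5 (0.64 ± 0.21, adjusted p = 0.028), with 3432, 4072 and 5094 FPKM against 2974, 2986 and 2109 in adult LG, but not without E19.5 LG replicate 2 or 3 (adjusted p = 0.071 and 0.090). Rpl22l1, the paralog of Rpl22, was lower at E19.5 (-0.65 ± 0.18, adjusted p = 0.016), with 2.88, 2.29 and 2.37 FPKM against 3.33, 4.92 and 5.54, and so went opposite to Rpl22. Without the same E19.5 libraries its adjusted p was 0.058 and 0.053, and on the scale of recovered reads its change was 0.0033.

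Of the genes of ribosome assembly, 10 were higher and 2 lower of 23 tested at both embryonic stages, against 29.1% and 30.3% of all genes higher and 24.9% and 23.9% lower. Nucleolin (Ncl), the main nucleolar protein that binds ribosomal RNA precursors, had 4.39, 3.75 and 4.40 FPKM in adult LG and 26.1, 25.9 and 31.4 at E17.5, and changed by 2.47 ± 0.13 and 2.27 ± 0.13 (adjusted p = 2.3e-06 and 4.4e-06). Dkc1, the pseudouridine synthase of ribosomal RNA, changed by 1.56 and 1.48 (adjusted p = 0.00031 and 0.00045). Ncl and Dkc1 were also higher in the spheres at day 7 than in adult LG (1.39 and 1.07, adjusted p = 0.0046 and 0.018; without any 1 day 7 library Dkc1 had 0.052 to 0.061), 2 of 8 higher genes and none lower of 22 tested, against 14.2% and 21.1% of all genes. Dkc1 and Pes1 fell along the culture (-0.11 and -0.07 per day, adjusted p = 0.042 and 0.047), the 2 called of 24, and neither call held without day 5 replicate 1 (0.10 and 0.13).

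All 6 tested host genes of small nucleolar RNAs, which guide the modification of ribosomal RNA, were higher at both embryonic stages than in adult LG, led by Zfas1 (2.11 ± 0.24 and 2.52 ± 0.24, adjusted p = 0.00013 and 5.6e-05). Snhg1 changed by 1.47 and 1.57 (adjusted p = 8.6e-05 and 6.7e-05). Spheres at day 7 had 2 of 7 higher than adult LG and none lower (14.2% and 21.1% of all genes), and 4 of 6 lower than E17.5 LG and none higher (29.6% and 18.1%). RNA polymerase I genes were 3 higher and 1 lower of 8 at both embryonic stages and 4 higher and 2 lower in the spheres against adult LG.

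Of 13 elongation and other TOP genes 11 were tested, of which E17.5 LG had 4 higher and 1 lower and E19.5 LG 3 and 2. Npm1, the nucleolar protein nucleophosmin, rose by 1.98 and 1.96 (adjusted p = 6.9e-05 and 8.1e-05) and was higher in the spheres at day 7 too (1.73, adjusted p = 0.0024), at 22.6 to 25.4 FPKM against 4.92 to 8.24 in adult LG. Of 25 initiation factors 5 were higher and 7 lower in E17.5 LG, and 6 and 7 in E19.5 LG. Among them Eif6, which keeps the large subunit from joining early, was higher in the spheres at day 7 than in adult LG (1.603 ± 0.29, adjusted p = 0.0073).

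Of the 10 tested genes of growth and translation control, 2 were higher and 4 lower at both embryonic stages. Myc, which drives ribosomal genes, rose by 1.33 ± 0.18 and 1.71 ± 0.18 (adjusted p = 0.00035 and 0.00010). Eif4ebp1, an inhibitor of the cap-binding factor Eif4e that mTOR switches off, fell, with changes of -2.48 ± 0.49 and -2.19 ± 0.49 (adjusted p = 0.0027 and 0.0052), from 591, 629 and 147 FPKM in adult LG to 65.3 to 92.5 FPKM in the embryonic libraries. Its relative Eif4ebp2 was the 1 gene of 8 called in the culture slope (-0.10 per day, adjusted p = 0.015), and it was not called without day 5 replicate 1 or day 14 replicate 3 (0.058 and 0.067).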

How the data were processed

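The authors deposited 1 table per library with an identifier and a value per gene, read here as FPKM. Per the labels the submitters' processing notes name CASAVA (1.8), HISAT2 (2.0.5) and featureCounts (1.5.0-p3), with the mouse build NCBIM37. The count model that the study's methods name was not rerun, since the deposited unit is FPKM. Symbols and positions came from GENCODE M21 (GRCm38) and start windows from RefSeq (GRCm38.p6), and the tables hold no coordinates.

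Tests used limma (3.58.1, R 4.3.3, eBayes with trend) on log2(FPKM + 1) of the genes whose mean reached 0.5 FPKM in a fit, with Benjamini-Hochberg adjustment over all genes and a threshold of 0.05, two-sided. The log2 values were computed here from the deposited FPKM. Reads were recovered where low values were whole multiples of 1 read, with a tolerance of 0.01 and a limit of 1000 reads, and 92.6% to 93.6% of genes came out whole. The 3 tissue groups shared 1 fit, the spheres of days 5 to 14 another, and the remaining comparisons used their 6 libraries. Fits were tested on simulated data. Same replicate numbers correlated in the culture (15 pairs, r from 0.26 to 0.72), so that the numbers pair there. In tissue and sphere-tissue comparisons r was between -0.08 and 0.06.

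Named were Rps2, Rpsa, the stalk genes, paralogs with their parents, the 5 highest and 5 lowest members of each comparison (not all are described, and some are not reported here), the 3 most abundant members, members under 0.5 FPKM, and list genes that passed; others were named after their values were seen. The members and lists were chosen with earlier results of these data known. Figures were made with Python 3.11.15 and matplotlib 3.10.9.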

Additional observations from a re-analysis of the deposited data

Results flagged for a closer look

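A set of 3 members had a signal in the passage 10 library, which no comparison used, and were listed at 0 in all 20 other libraries. They were Rpl8 with 1317 FPKM, Rpl36 with 935 FPKM and Rpl17 with 540 FPKM at passage 10, each from 1 library with no replicate. The cause was not tested.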

How the results depend on the processing

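Scaling moved the results most. The share of all genes called moved with the scale too, as given above, so these counts are not results about the family alone. On equal FPKM sums the members called numbered 66 for E17.5 against adult LG and 64 for LGSC day 7 against adult LG, with medians of 2.36 and 2.16 and 2.51 for E19.5 against adult LG, and the median of E19.5 against E17.5 was 0.10. The log2 ratios of the sums were then 2.42 (E17.5 to adult), 2.70 (E19.5 to adult), 0.28 (E19.5 to E17.5) and 2.31 (day 7 to adult), and E19.5 to E17.5 was also 0.28 without the most abundant adult genes. Equal sums reversed Rps27l (0.69) and Rplp2 (2.15) at E17.5, Rps27l (0.77), Rpl7 (0.68), Rps4x (0.71), Rpl22l1 (0.73) and Eif4ebp2 (0.37) at E19.5, Eif4ebp2 at E17.5 (0.58), and Rpl10 (1.52), Rps29 (1.58), Rplp1 (2.13), Rpl39 (1.20), Rps27l (1.63), Rps27 (2.23) and Eif4ebp2 (0.79) for day 7 against adult LG. Recovered reads gave 57 members called at E17.5 and 49 for day 7 against adult LG, with medians of 1.33, 1.597 (E19.5) and 1.12, and reversed Rplp2 at E17.5 (0.93), Rpl7 (0.0043), Rps4x (0.064) and Rpl22l1 (0.0033) at E19.5 and Rps29 (0.40), Rplp1 (0.95) and Rps27 (1.05) for day 7 against adult LG. The members' median as scale gave medians of 0.044 and -0.058 for E17.5 and E19.5 against adult LG and -0.19 for E19.5 against E17.5. That scale moves the members' median towards 0 by construction, so these medians do not test the family. Changes of single genes on it are relative to the family. It called 11 for day 7 against adult LG and 0 in the slope, and reversed Rps2 (-0.058), Rplp1 (-0.12), Rplp2 (-0.74), Rpl39 (-0.56) and Fau (-0.26) at E19.5. Without the filter the slope called 0 and the E19.5 to E17.5 median was 0.19.

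With adult LG replicate 3 as the sole adult library, which is assumed to vary like the other groups, the members called were 43 at E17.5, 7 for E19.5 against E17.5 and 12 for day 7 against adult LG. The embryonic libraries alone called 8. All 20 libraries in 1 fit called 17 for day 7 against adult LG and 15 against E17.5. Counts in this paragraph stand without the share of all genes called, so nothing particular to the family is read from them. Days 7, 10 and 14 alone called 0 in the slope. Leaving out single libraries gave 0 to 10 for E19.5 against E17.5 (median 0.18 to 0.40), 0 to 2 for the slope, 3 to 23 for day 7 against adult LG and 21 to 38 against E17.5. In the culture, where the replicate numbers pair, the block called 2 in the slope, and 3 with limma-voom. The numbers pair nothing in the tissue comparisons, and the block there gave 20 higher and 4 lower members at E17.5, 35 and 3 at E19.5, 6 and 18 for day 7 against E17.5 and 4 called in all for day 7 against adult LG. Depth limits the 41 members with low values, whose median was 67.3 reads per library.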
